A study of Mus musculus with 12 samples.

Results

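Peyer's patches are groups of lymphoid follicles in the wall of the small intestine, and CD4+ T cells from those of mice were profiled on Affymetrix mouse gene arrays. All the mice carried a bacterial artificial chromosome transgene whose green fluorescent protein (eGFP, here GFP) reports the interleukin 21 gene, and all cells came from a CD4+ gate negative for class II and for Epcam. Described here are the 2 gates of GFP- cells without surface PD-1, CXCR5+PD1- and CXCR5-PD1-, with 3 arrays each. These are 6 of the 12 arrays of the series. They were chosen by their sample titles, and arrays with the same replicate number in the title were treated as a pair. The GFP- T follicular helper (Tfh) gate, CXCR5+PD1+ with 3 arrays, served as the outside reference, and the 3 GFP+ Tfh arrays entered only the filter and some alternatives. The characteristics of the GFP+ arrays read CXCR5- and PD1-, against their titles of CXCR5+PD1+, and the titles were used. The age, strain and sex of the mice, and whether an array held 1 mouse or a pool, are not given in the sources used here. The p-values therefore measure only the spread between these samples, which may be technical between replicates 1 and 2. The sorting text in the labels describes the CXCR5-PD1- gate and both Tfh gates but not the CXCR5+PD1- gate, which is known only from the titles and sample characteristics. The labels call the cells of all groups T follicular helper, including both PD1- gates. Values are on the log2 scale, in which 1 unit is a 2-fold change, and are given as mean ± SD (n = 3 arrays) or as a difference ± SE. The median probe set lay at 6.39 to 6.45 on the 6 arrays. Replicate 3 of each gate had high Xist and low Y-linked genes, and replicates 1 and 2 had the opposite. By these genes replicate 3 came from female mice and replicates 1 and 2 from male mice.

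CXCR5 is the receptor for the chemokine CXCL13 and leads T and B cells into the follicle. Tfh cells combine CXCR5 with the inhibitory receptor PD-1, depend on the transcription factor BCL6 and give B cells help through interleukins 21 and 4. Naive and recirculating T cells instead use CCR7, the receptor that holds them in the T cell zone, and S1PR1, the receptor for sphingosine 1-phosphate by which lymphocytes leave lymphoid tissue. Cells with CXCR5 but without PD-1 lie between these descriptions by surface phenotype, and comparing them with CXCR5-PD1- cells asks how far the gates differ in their RNA.

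The Cxcr5 transcript did not separate the gate labelled CXCR5+ from the gate labelled CXCR5-. Cxcr5 read 5.87, 5.78 and 5.19 in replicates 1 to 3 of CXCR5+PD1- and 6.19, 5.59 and 5.36 in CXCR5-PD1-, against 8.11, 8.61 and 7.91 in GFP- Tfh. The PD1- ranges overlapped and lay below the array median on all 6 arrays, and both lay below every GFP- Tfh array. The difference, CXCR5+PD1- minus CXCR5-PD1-, was -0.10 ± 0.13 (95% confidence interval -0.42 to 0.21). Signals below the array median are compressed, so this interval bounds the array reading and not the fold in RNA. Only in pair 2 was Cxcr5 higher in the CXCR5+ gate, and without replicate 1 the difference was 0.0085. The means of 5.61 ± 0.37 and 5.71 ± 0.43 together differed from GFP- Tfh by -2.55 ± 0.22 (limma adjusted p = 7.82e-05). Cxcr5 passed the filter on low signal only through its Tfh arrays, whose sort used CXCR5, so that difference is a description. The array reads RNA and the gate reads surface protein, so the gates are named here by their labels.

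The other markers of the sort and of position also lay close together in the PD1- gates. Pdcd1, the gene of PD-1, read 6.95, 7.31 and 6.998 in CXCR5+PD1- and 6.81, 6.93 and 6.88 in CXCR5-PD1-. It was higher in the CXCR5+ gate in all 3 pairs and the groups did not overlap, but the difference of 0.21 (interval -0.03 to 0.46) did not pass the threshold (limma adjusted p = 0.811). Both gates lay far below the 9.11 ± 0.34 of GFP- Tfh. S1pr1 read 10.83, 11.17 and 11.41 in CXCR5+PD1- and 10.85, 11.08 and 11.52 in CXCR5-PD1-, a difference of -0.01 (interval -0.24 to 0.22). Its level in GFP- Tfh was 8.49 ± 0.26. Ccr7 averaged 10.97 ± 0.31 and 11.11 ± 0.20, with a difference of -0.14 (interval -0.38 to 0.10), and lay at 9.33 ± 0.28 in GFP- Tfh. Cd4 itself averaged 9.73 ± 0.22 and 9.80 ± 0.17, with a difference of -0.07 (interval -0.29 to 0.16).

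Il21, the gene that the reporter follows, was low but uneven in both PD1- gates. It read 7.63, 6.46 and 5.41 in CXCR5+PD1- and 7.24, 7.31 and 5.39 in CXCR5-PD1-, so replicate 3 was the lowest array of each gate. GFP- Tfh arrays read 10.17, 10.15 and 9.57. The difference between the PD1- gates was -0.14 (interval -0.74 to 0.46), and it was 0.21 without replicate 2.

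**Figure D1:**
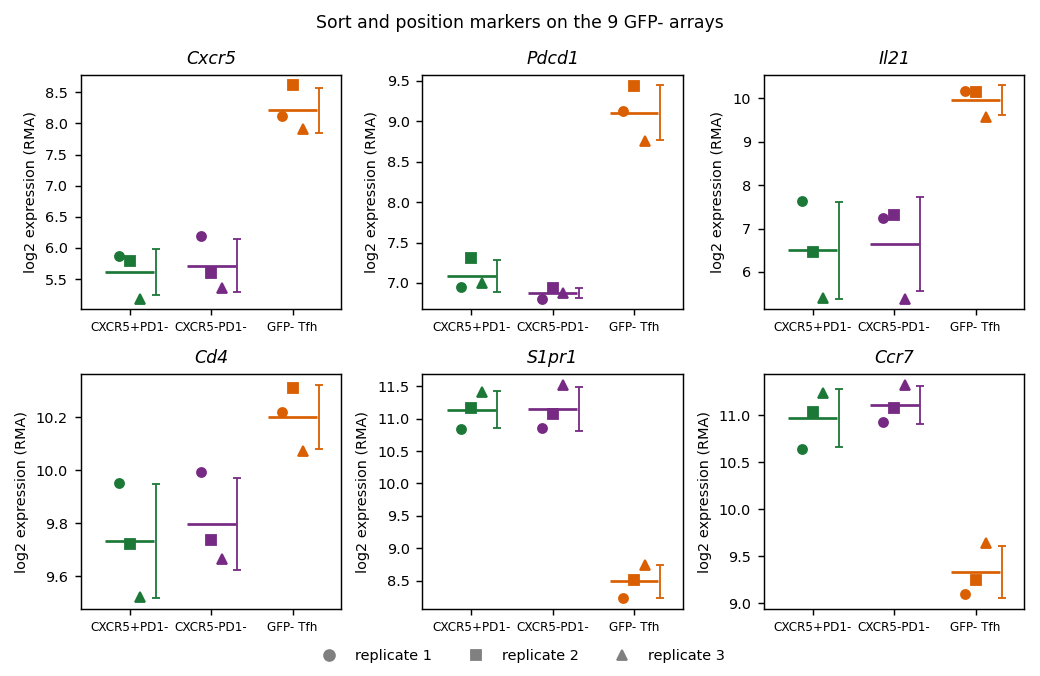
Log2 expression of Cxcr5, Pdcd1, Il21, Cd4, S1pr1 and Ccr7 on the 9 GFP- arrays, with symbols for the replicate number, a horizontal line for the mean and a bar of 1 SD on each side; each panel has its own log2 axis, which does not start at 0. The CXCR5+PD1- and CXCR5-PD1- arrays overlap in each panel but that of Pdcd1, and those of Il21 spread from 5.39 to 7.63. In every panel both gates lie apart from GFP- Tfh, narrowly for Cd4 (highest PD1- array 9.99, lowest GFP- Tfh array 10.07).

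Across the genome no gene was called between the PD1- gates. Of 11240 genes tested, 0 (0%) passed an adjusted p of 0.05 in limma with the replicate number as a block, and the smallest adjusted p was 0.811. At an unadjusted p under 0.05 there were 646 genes (5.75%), 289 higher and 357 lower in CXCR5+PD1-. In 982 genes (8.74%) the 3 arrays of one gate did not overlap those of the other, and 3207 genes (28.5%) differed the same way in all 3 pairs. None of the 14 other settings called a gene. At an unadjusted p under 0.05 they gave from 137 of 11240 genes (12 arrays, no block) to 1153 of 19937 (no filter). With 3 pairs of arrays, precision is limited by their number.

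A threshold that is missed does not show that 2 gates are alike, so the size of a difference was bounded as well. A gene was called bounded when a moderated test placed its difference inside -1 to 1 log2 units, that is within a 2-fold change either way, at an adjusted p under 0.05. By this rule 11154 genes (99.2%) were bounded within 1 unit and 9606 (85.5%) within 0.5 units, which is 1.41-fold. By a stricter measure, 11082 genes had the whole 95% interval inside -1 to 1. Every bounded count of a gene list given here is to be read against the 99.2% of all genes tested. The median difference was 0.01, and the 1st to 99th percentiles ran from -0.46 to 0.38. The median 95% interval reached 0.26 to each side, or 1.20-fold, and the 5th to 95th percentiles of that reach were 0.22 to 0.50. Among the 9141 genes above the array median on all 6 arrays, 9099 (99.5%) were bounded within 1 unit and 7933 (86.8%) within 0.5. Of the 86 genes that were not bounded, 42 were in this group and 44 were among the 2099 other genes tested. The 8697 genes that did not pass the filter on low signal carry no bound.

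**Figure D2:**
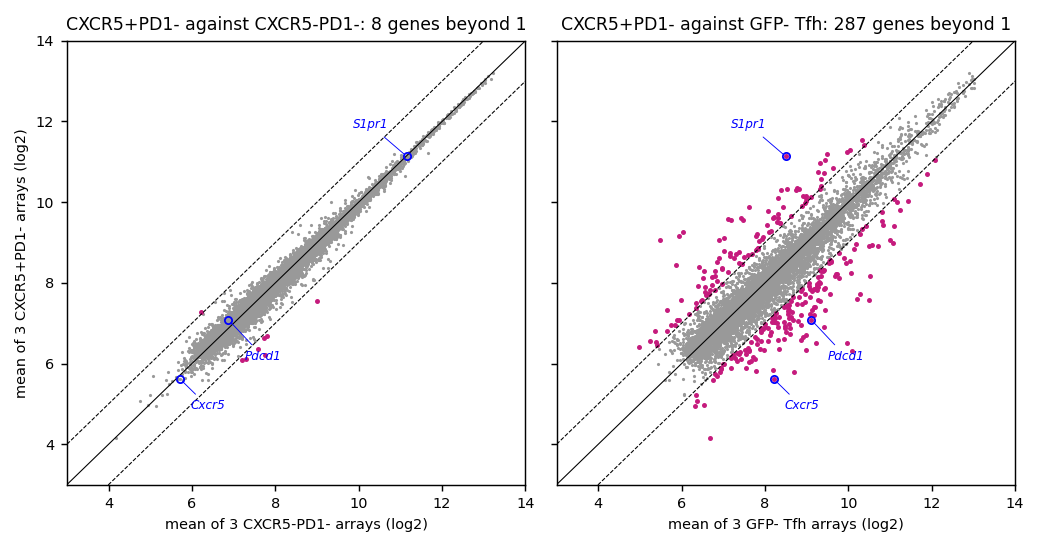
Mean log2 expression of the 11240 genes tested in CXCR5+PD1- (vertical axis) against CXCR5-PD1- (left) and against GFP- Tfh (right), 3 arrays per mean, with dashed lines 1 log2 unit from the diagonal and genes beyond them in magenta. On the left 8 genes lie outside the lines and Cxcr5, Pdcd1 and S1pr1 lie near the diagonal; on the right 287 genes lie outside, those 3 genes among them.

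None of the genes with the smallest p between the gates passed the threshold (limma, smallest adjusted p = 0.811). Nudt1, which clears oxidised nucleotides, read 6.44, 6.70 and 6.93 in CXCR5+PD1- and 7.49, 8.08 and 7.83 in CXCR5-PD1-. These groups did not overlap, and the difference was -1.11 (interval -1.41 to -0.81). Ptpn3, a protein tyrosine phosphatase, read 7.85, 7.42 and 7.32 in CXCR5+PD1- and 6.66, 6.39 and 6.57 in CXCR5-PD1-. Its difference of 0.99 (interval 0.70 to 1.28) comes from 1 of its 12 probe sets, and with the mean of the 12 the gene did not pass the filter. Nsdhl, an enzyme of cholesterol synthesis, differed by -0.87 (interval -1.16 to -0.59), Haus2, a subunit of the augmin complex of the spindle, by -0.70, and Kif1c, a kinesin motor, by -1.18. In the other direction, Pam16, part of the mitochondrial import motor, differed by 0.83 (interval 0.48 to 1.18), Zdhhc4, a protein palmitoyltransferase, by 0.59, and Psmd10, a proteasome assembly chaperone, by 0.44. Eef1akmt1, C1galt1c1, Wdr47, Slc25a17, Rbm12b2 and Golm2 were lower by 0.49 to 0.82 units, and Zfp626, Arl3, Spaca1, Wwox, Mycbp and Dcun1d4 were higher by 0.48 to 0.98 units. Kif1c (interval -1.71 to -0.64) and Pam16 were each read from 1 of 2 probe sets. Kif1c and Spaca1 lay above the array median on 3 of the 6 arrays, and Wdr47 and Mycbp on 2. Signals below that median are compressed. Differences beyond 1 unit were found for 8 genes, and Set, Timm21 and Gtpbp10, singled out after their values were seen, show how uneven these were. Set, a histone chaperone, read 6.12, 6.60 and 5.88 in CXCR5+PD1- and 8.48, 7.03 and 7.72 in CXCR5-PD1-, a difference of -1.54 (interval -2.45 to -0.64). Timm21, of the mitochondrial import machinery, differed by -1.46 with an interval of -2.85 to -0.07, and Gtpbp10, a GTPase of mitochondrial ribosome assembly, by 1.06 (interval 0.39 to 1.74).

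What the PD1- gates had in common stood out against the GFP- Tfh gate. As 6 arrays they were higher in 454 genes (4.04%) and lower in 660 genes (5.87%) of the 11240 tested (limma, 9 GFP- arrays, adjusted p under 0.05). All 6 PD1- arrays lay above all 3 Tfh arrays in 436 of the 454, and below them in 612 of the 660. Low signals are compressed, and of the 660 lower genes 105 averaged below the array median in the PD1- gates, while of the 454 higher genes 62 averaged below it in GFP- Tfh. Of the 1114 genes called, 1107 (99.4%) were also bounded within 1 unit between the PD1- gates, against 99.2% of all genes tested. Among the 7 others, named after their values were seen, were Kif1c, Prdx2, a peroxidase, Cybb, a subunit of the phagocyte NADPH oxidase, Setbp1 and Trps1, a GATA-type repressor. Cybb read 7.42, 5.70 and 7.21 in CXCR5+PD1- and 7.17, 6.06 and 5.43 in CXCR5-PD1-, so the spread within a gate left an interval of -0.44 to 1.55. Prdx2 read 8.42, 8.03 and 9.21 against 9.19, 9.11 and 9.61, a difference of -0.75 (interval -1.12 to -0.38) that was not called. In bulk RNA, fewer cells of a type and less RNA per cell cannot be told apart. The count of 1114 fell to 700 without GFP- Tfh replicate 2 and was 639 in a fit of all 12 arrays.

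The naive and recirculating program was shared and high. All 22 genes of this list with a probe set of their own lay above the array median on all 6 PD1- arrays, and 17 of the 22 were higher than in GFP- Tfh, 0 lower, with a median difference of 1.28 against 0.01 over all genes tested. The list was written with earlier results of these data known, so its direction is not independent evidence. Between the PD1- gates 0 of the 22 were called, 22 were bounded within 1 unit (99.2% of all genes tested), and the median difference was -0.06. Cd55, the complement regulator decay-accelerating factor, read 8.86, 9.20 and 9.42 in CXCR5+PD1-, 9.26, 9.18 and 9.63 in CXCR5-PD1-, and 6.14, 5.95 and 5.75 in GFP- Tfh. The PD1- gates overlapped each other (difference -0.20, interval -0.48 to 0.09) and together lay 3.31 ± 0.15 above GFP- Tfh (limma adjusted p = 6.98e-06), where Cd55 read below the array median and a difference may be understated. S1pr1 was 2.65 ± 0.18 higher than in GFP- Tfh, and Ccr7 was 1.71 ± 0.16 higher (limma adjusted p = 1.63e-05 and 0.000121).

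Other members of that list followed the same pattern. Dapl1, a gene of naive T cells, was 2.57 ± 0.16 higher in the PD1- gates, with means of 8.44 and 8.43 in the 2 gates and 5.87, below the array median, in GFP- Tfh. Rasgrp2, an exchange factor for the integrin-activating GTPase Rap1, was 2.50 ± 0.14 higher, and Sidt1, a transmembrane protein, 2.49 ± 0.13 higher. Il7r, the receptor chain for the survival cytokine interleukin 7, was 1.60 ± 0.13 higher, and Lef1, a transcription factor of naive T cells, 1.29 ± 0.11 higher. Klf2, the factor that drives S1pr1 transcription, was 0.61 ± 0.11 higher and lay at 9.19 ± 0.18 and 9.26 ± 0.10 in the gates. The 5 members without a call were Atp1b1, S1pr4, Il6ra, Ets1 and Foxo1. Bach2, a repressor of effector differentiation, and Igfbp4 were the 2 members below an unadjusted p of 0.05 between the gates. Bach2 read 7.56, 7.49 and 8.05 in CXCR5+PD1- and 7.71, 8.02 and 8.31 in CXCR5-PD1-, a difference of -0.31 (interval -0.58 to -0.04), and Igfbp4 differed by -0.25 (interval -0.46 to -0.04). Both were lower in CXCR5+PD1- in all 3 pairs, the groups overlapped, and neither was called (limma adjusted p = 0.811).

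**Figure D3:**
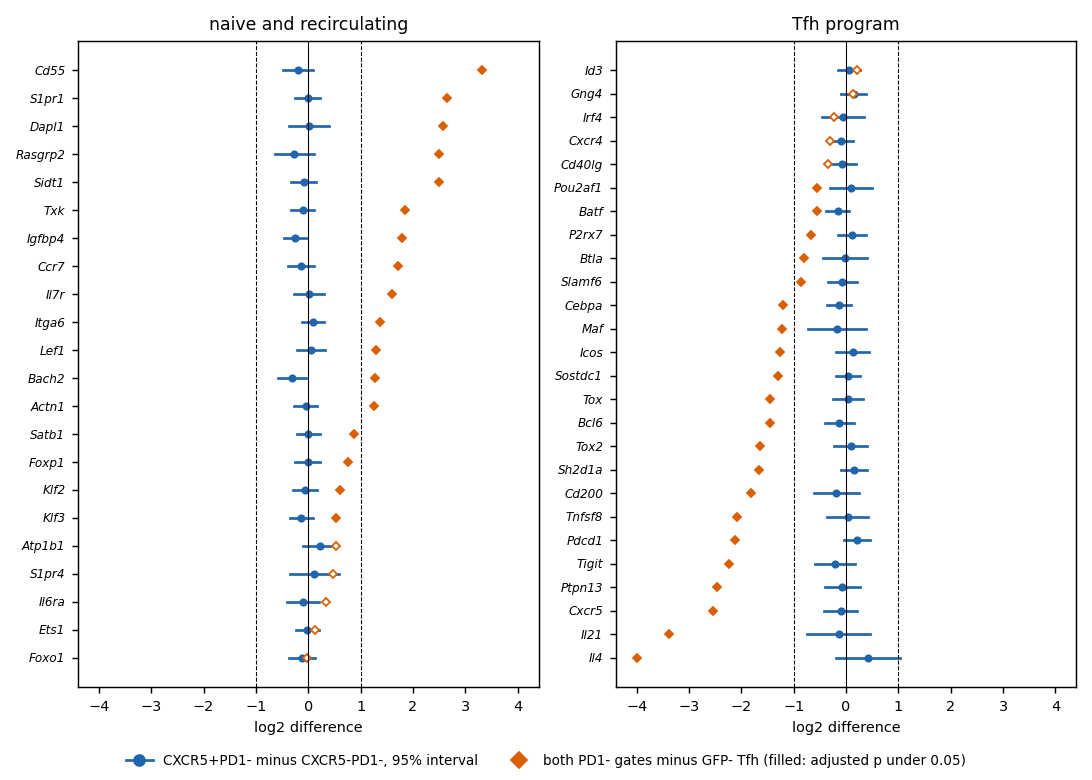
Log2 differences of the 22 naive and recirculating genes (left) and the 26 Tfh program genes tested (right): blue points and bars give CXCR5+PD1- minus CXCR5-PD1- with its 95% interval, and orange diamonds give both PD1- gates minus GFP- Tfh, filled where called. The blue points stay between -0.31 and 0.42, while the diamonds run up to 3.31 on the left and down to -3.99 on the right.

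The Tfh program was lower in both PD1- gates. Of the 26 members tested, 21 were lower than in GFP- Tfh and 0 higher, with a median difference of -1.28, against 0.01 over all genes tested. Between the PD1- gates 0 of the 26 were called and 26 were bounded within 1 unit, against 99.2% of all genes tested (median difference -0.04). This list too was written with earlier results known, and it holds Cxcr5 and Pdcd1, whose proteins define the Tfh sort, so its count is not independent evidence. Cxcr5, Sostdc1 and Cebpa lay above the array median on 0 of the 6 PD1- arrays, and Il4 on 1, so they passed the filter through Tfh arrays, where they are high. Il4 read 6.21, 6.34 and 6.41 in CXCR5+PD1- and 6.48, 5.81 and 5.40 in CXCR5-PD1-, below 10.41, 10.19 and 9.69 in GFP- Tfh. The PD1- ranges overlapped, and Il4 had the widest interval of the list, -0.19 to 1.03 around a difference of 0.42, although the bounding test placed it inside 1 unit. Its joint difference from GFP- Tfh was -3.99 ± 0.22 (limma adjusted p = 6.98e-06). Il21 differed from GFP- Tfh by -3.39 ± 0.51 and Ptpn13, a protein tyrosine phosphatase, by -2.46 ± 0.14. Bcl6, the defining repressor of Tfh cells, averaged 8.17 ± 0.10 and 8.29 ± 0.11 in the gates and 9.69 ± 0.27 in GFP- Tfh, so it remained above the array median in all 3 groups. Its difference between the PD1- gates was -0.13 (interval -0.41 to 0.16). Tox, a nuclear factor of Tfh and exhausted T cells, differed from GFP- Tfh by -1.45 ± 0.10, Sh2d1a, the adaptor SAP needed for T-B adhesion, by -1.66 ± 0.11, and Icos, a costimulatory receptor, by -1.26 ± 0.12. The 5 members without a call were Id3, Gng4, Irf4, Cxcr4 and Cd40lg. Batf, a transcription factor of the AP-1 family, lay at 9.04 and 9.19 in the gates without overlap, a difference of -0.16 (interval -0.38 to 0.06) that was not called.

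All 9 coinhibitory genes tested were lower in the PD1- gates than in GFP- Tfh, with a median of -1.39, against 5.87% of all genes tested. They include Pdcd1, whose protein defines the Tfh sort, and share members with the Tfh program list. Cd160 lay above the array median on 1 of the 6 PD1- arrays, so it passed the filter through Tfh arrays. The count is thus not independent evidence. Tigit fell by 2.24 on the log2 scale and Nt5e, the ectoenzyme CD73, by 2.04, while Cd274, the PD-1 ligand, fell by 0.80. Between the gates 0 of the 9 were called and all 9 were bounded within 1 unit (99.2% of all genes tested). Ctla4 was matched at 11.04 in both gates, with a difference of 0.00 (interval -0.22 to 0.22). Tigit differed by -0.21 (interval -0.59 to 0.17), and Cd200 by -0.19 with the widest interval of the list, -0.61 to 0.24.

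Outside these lists, other genes lay far from GFP- Tfh in both PD1- gates. Atp8b4, a phospholipid flippase, read 8.64, 9.46 and 9.10 in CXCR5+PD1- and 8.79, 9.05 and 8.25 in CXCR5-PD1-, against 5.46, 5.43 and 5.56 in GFP- Tfh. No PD1- array came near the Tfh arrays, the joint difference was 3.40 ± 0.20 (limma adjusted p = 7.3e-06), and the gates differed by 0.37 (interval -0.12 to 0.86). The Tfh readings of Atp8b4 lie below the array median, so its difference from GFP- Tfh may be understated. Crybg1, Rasa3, a GTPase-activating protein that restrains Rap1, St8sia6, a sialyltransferase, and Cmah, the enzyme that hydroxylates sialic acid, were 2.07 to 2.24 units higher. At the other end Sccpdh read 5.73, 5.79 and 5.86 in CXCR5+PD1-, 5.39, 5.88 and 5.01 in CXCR5-PD1- and 8.90, 8.71 and 8.47 in GFP- Tfh, and fell by 3.08, with a difference between the gates of 0.37 (interval -0.10 to 0.84). Grn, the growth factor progranulin, fell by 2.86, Il1r2, the decoy receptor for interleukin 1, by 2.84, and Casp4, an inflammatory caspase, by 2.70. Eea1, an early endosome tether, Penk, which encodes proenkephalin, and Ly96, the MD-2 partner of TLR4, fell by 2.51 to 2.66. Sccpdh and Ly96 lay above the array median on 0 of the 6 PD1- arrays and Il1r2 on 1, so these passed the filter through Tfh arrays and their falls may be understated. Between the gates Il1r2 differed by 0.35 (interval -0.33 to 1.03) and Casp4 by 0.29 (interval -0.39 to 0.96).

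T cell identity was shared by the gates. All 22 T cell identity and receptor signalling genes with a probe set of their own lay above the array median on all 6 arrays. Cd3e averaged 11.31 ± 0.07 in CXCR5+PD1- and 11.33 ± 0.06 in CXCR5-PD1- (difference -0.02, interval -0.24 to 0.20), and Cd3d averaged 11.03 ± 0.09 and 11.04 ± 0.15. Of the 22, 7 were lower in the PD1- gates than in GFP- Tfh and 0 higher, against 5.87% and 4.04% of all genes tested, among them the receptor kinases Fyn (-0.73 ± 0.09) and Zap70 (-0.56 ± 0.13) and the phosphatase Ptpn22 (-0.92 ± 0.12). Cd4 was called at -0.44 ± 0.12 (limma adjusted p = 0.0458), but its adjusted p ran from 0.0199 to 0.178 over the alternatives. Between the gates, Cd27, a costimulatory receptor of the TNF receptor family, read 9.50, 9.58 and 9.80 in CXCR5+PD1- and 9.87, 9.89 and 9.93 in CXCR5-PD1-. The groups did not overlap, the difference was -0.27 (interval -0.51 to -0.03), and it was not called.

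Among 20 positioning and homing receptors tested, 5 were higher and 4 lower than in GFP- Tfh, against 4.04% and 5.87% of all genes tested. Between the gates 20 of 20 were bounded within 1 unit, against 99.2% of all genes. Beside S1pr1 and Ccr7, the higher ones included Selplg, the P-selectin ligand (1.22 ± 0.13). The lower ones were Cxcr5, the chemokine receptors Ccr4 and Ccr6, and Itgal, the alpha chain of the integrin LFA-1. The protein of Cxcr5 defines the Tfh sort, and the gene passed the filter only through Tfh arrays. The count of lower receptors is thus not independent evidence. Itgal read 8.86, 8.77 and 8.58 in CXCR5+PD1- and 8.85, 8.24 and 8.24 in CXCR5-PD1-, higher in the CXCR5+ gate in all 3 pairs with overlapping groups, a difference of 0.29 (interval -0.02 to 0.61). Ccr9 and Itgb7, receptors that guide T cells to the small intestine, differed by -0.24 (interval -0.67 to 0.18) and -0.13 (interval -0.37 to 0.10).

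Memory and effector genes split in both directions. Of 18 tested, 3 were higher than in GFP- Tfh and 7 lower, against 4.04% and 5.87% of all genes tested, and 18 were bounded between the gates (99.2% of all genes). S100a6 lay above the array median on 1 of the 6 PD1- arrays, so it passed the filter through Tfh arrays. Cd44, the hyaluronan receptor that rises on activated T cells, lay at 7.84 ± 0.20 in CXCR5+PD1- and 7.83 ± 0.01 in CXCR5-PD1- and differed from GFP- Tfh by -1.57 ± 0.10 (limma adjusted p = 1.43e-05). Il2rb and S100a11 fell by 0.90 and 0.97, and Crip1, a small LIM protein, was 1.02 ± 0.12 higher. The widest interval of the list between the gates was that of the chemokine Ccl5, -0.51 to 0.41.

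Genes of regulatory T cells were measured in both gates. Of 17 tested, 7 were lower than in GFP- Tfh and 0 higher, against 5.87% and 4.04% of all genes tested, and 17 were bounded between the gates (99.2% of all genes). Foxp3, the defining factor, read 7.89, 7.51 and 7.63 in CXCR5+PD1- and 8.03, 8.15 and 7.67 in CXCR5-PD1-, lower in the CXCR5+ gate in all 3 pairs with overlapping groups (difference -0.27, interval -0.62 to 0.09). Il2ra, the interleukin 2 receptor alpha chain, read 8.90, 8.81 and 8.60 against 9.42, 8.93 and 8.92, without overlap, a difference of -0.32 (interval -0.59 to -0.04). Neither was called between the gates, nor was either called against GFP- Tfh. Ikzf2, which encodes Helios, differed by -0.22 between the gates (interval -0.53 to 0.08) and fell by 1.82 against GFP- Tfh.

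Genes of the other helper programs gave no call between the gates. Over all genes tested, 4.04% were higher and 5.87% lower than in GFP- Tfh, and 99.2% were bounded between the gates. Of 14 Th1 and cytotoxic genes tested, 2 were higher than in GFP- Tfh, Il18r1 (0.76 ± 0.17) and Prf1, the gene of perforin (0.59 ± 0.15). Of 8 Th17 genes, 3 were lower, Ahr, Rora and Ccr6, and of 5 Th2 genes 3 were lower, Il4, Ccr4 and Il17rb. Il4 and Il17rb each lay above the array median on 1 of the 6 PD1- arrays. Both passed the filter through Tfh arrays, where they are higher, so the Th2 count is not independent evidence. Il17rb lost its call in 11 of the alternatives, Ccr6 in 6, Prf1 in 5, Il18r1 in 3 (limma adjusted p up to 0.436) and Rora in 1. All tested members of these 3 lists were bounded within 1 unit between the gates. Ifng, the gene of interferon gamma, differed by -0.23 (interval -0.56 to 0.10), Il17a by 0.09 (interval -0.21 to 0.39) and Gata3, the Th2 and T cell factor, by -0.29 (interval -0.57 to -0.01). Of 15 cytokine genes tested, 5 were lower than in GFP- Tfh and 0 higher, with Il10, an inhibitory cytokine, at -1.08 ± 0.19 and Csf1, a macrophage growth factor, at -0.88 ± 0.15 beside Il4 and Il21. The cytokine count holds Il4, which passed the filter through Tfh arrays, so it is not independent evidence either. Ebi3, a subunit of heterodimeric cytokines, was 0.30 higher in CXCR5+PD1- (interval 0.04 to 0.56) without a call.

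Activation and state genes were compared in the same way, again against 4.04% of all genes tested higher and 5.87% lower than in GFP- Tfh and 99.2% bounded between the gates. All 25 immediate early genes lay above the array median on all 6 arrays, 4 were higher than in GFP- Tfh and 2 lower, and 25 were bounded between the gates. Myc read 9.55, 9.43 and 9.82 in CXCR5+PD1- and 9.85, 9.54 and 10.20 in CXCR5-PD1-, a difference of -0.26 (interval -0.50 to -0.01), and was 1.41 ± 0.17 above GFP- Tfh. Egr2, a zinc finger factor induced by the T cell receptor, fell by 0.74 against GFP- Tfh. Of 19 cell cycle genes tested, 8 were lower than in GFP- Tfh, among them Mki67 (-0.97 ± 0.18) and the replication helicase subunit Mcm6 (-0.95 ± 0.15). Birc5, Kif11 and Cenpe lay above the array median on 0 of the 6 PD1- arrays and Mki67 on 1. These 4 passed the filter through Tfh arrays, where they are higher, so the count is not independent evidence. Of 20 interferon response genes, 3 were higher than in GFP- Tfh, Ifit2, Ddx58 and Oas2, by 0.52 to 0.53. Ifit2 lay above the array median on 5 of the 6 PD1- arrays and below it in GFP- Tfh, at 6.18, 6.10 and 6.12. It passed the filter through PD1- arrays, where it is higher, so this count is not independent evidence either. Oas2 lost its call in 10 alternatives and Ddx58 in 2. Irf9 was 0.26 higher in CXCR5+PD1- (interval 0.03 to 0.49) without a call, and Rtp4 had the widest interval, -0.80 to 1.02. Of 15 stress and dissociation genes, 2 were lower than in GFP- Tfh, Hmox1, the gene of heme oxygenase, and Gadd45b, which lost its call in 8 alternatives, and 15 were bounded between the gates. Hmox1 lay above the array median on 1 of the 6 PD1- arrays, so it too passed the filter through Tfh arrays.

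**Figure D4:**
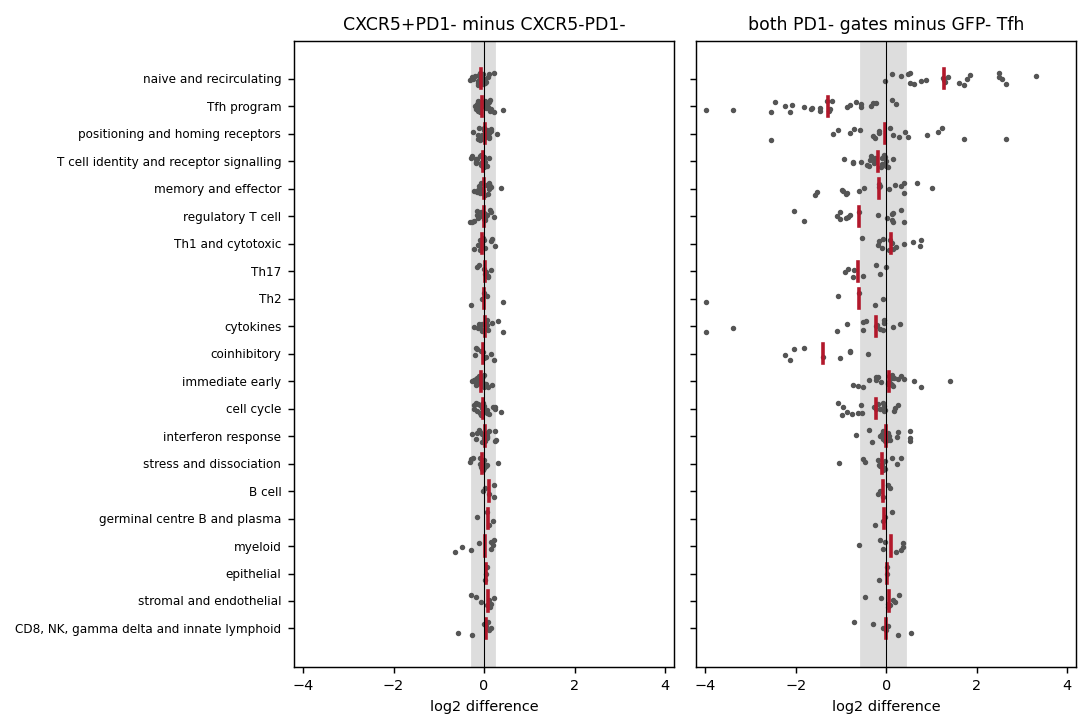
Log2 differences of the tested members of 21 gene lists (grey points) with each list's median (red bar), for CXCR5+PD1- minus CXCR5-PD1- (left) and both PD1- gates minus GFP- Tfh (right); grey bands hold the 5th to 95th percentiles of all 11240 genes. On the left the list medians lie within 0.12 of 0, and on the right the naive and recirculating list has a median of 1.28 and the Tfh program list one of -1.28.

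Markers of other cells that such a gate could hold were checked in the same arrays. Above the array median on all 6 PD1- arrays were 1 of 17 B cell genes, 3 of 10 germinal centre B and plasma cell genes, 4 of 20 myeloid genes, 2 of 18 epithelial genes and 6 of 14 stromal and endothelial genes, against 45.8% of all genes on the array. Relative to the array median, the median of the B cell list lay at -0.75 to -0.61 in CXCR5+PD1- and -0.89 to -0.24 in CXCR5-PD1-, and that of the germinal centre B and plasma cell list at -0.60 to -0.36 and -0.46 to -0.35. The myeloid list lay at -0.70 to -0.55 and -0.71 to -0.53, the epithelial list at -1.10 to -1.02 and -1.03 to -0.97, and the stromal and endothelial list at -0.17 to -0.10 and -0.20 to 0.06. These ranges overlapped between the gates. Ms4a1, Epcam, Itgam and Csf1r did not pass the filter on low signal, which 5 of the 17 B cell, 4 of the 10 germinal centre B and plasma cell, 8 of the 20 myeloid, 3 of the 18 epithelial and 8 of the 14 stromal and endothelial genes passed. Well above the array median were Ccl19, a chemokine of T zone stroma, at 10.95 and 10.74 in the gates, Pecam1, an adhesion molecule of endothelium, at 9.45 and 9.52, and the myeloid genes Ctss and Cst3 at 9.16 and 9.01 and at 8.67 and 8.48. In GFP- Tfh, Ccl19, Pecam1, Ctss and Cst3 averaged 10.96, 9.30, 9.11 and 9.17. The part of these genes in the differences was not tested. Of the 14 stromal and endothelial genes, 7 lay above the array median on 0 of the 6 PD1- arrays, among them Cdh5, Kdr, Pdgfra and Dcn. Myeloid Lyz2, the gene of lysozyme, read 5.44, 5.92 and 5.45 in CXCR5+PD1- and 6.05, 7.10 and 5.59 in CXCR5-PD1-, a difference of -0.64 (interval -1.15 to -0.14), and was the 1 member of its list that was not bounded within 1 unit. Lyz2 lay above the array median on 1 of the 6 PD1- arrays, and its other readings there lie where signals are compressed. It passed the filter through that array and GFP+ Tfh arrays (7.33 and 7.64 in replicates 1 and 2). Tyrobp, a myeloid and NK cell adaptor, read 7.88, 7.67 and 6.79 against 8.58, 8.41 and 6.79, a difference of -0.48 (interval -0.90 to -0.05). Replicate 3 was the lowest array of both gates for Tyrobp, and neither gene was called. Against GFP- Tfh the called members of these lists were Cst3, a protease inhibitor of myeloid cells, at -0.60 ± 0.16, lost in 9 alternatives, and Cxcl13, the ligand of CXCR5, at -0.48 ± 0.09. Cxcl13 lay above the array median on 0 of the 6 PD1- arrays, so it passed the filter through Tfh arrays. In GFP- Tfh it read 6.27, 6.51 and 6.49, near that median, so its difference is a description.

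Genes of CD8, NK, gamma delta and innate lymphoid cells gave no single direction. The median of the 11 genes on the array lay at -0.10 to 0.09 relative to the array median in CXCR5+PD1- and at 0.13 to 0.34 in CXCR5-PD1-, without overlap, whereas the median difference of the 7 tested, CXCR5+PD1- minus CXCR5-PD1-, was 0.04. Cd8b1 read 6.49, 6.36 and 6.42 in CXCR5+PD1- and 7.31, 6.79 and 6.87 in CXCR5-PD1-, without overlap, a difference of -0.57 (interval -0.86 to -0.28) that was not called (limma adjusted p = 0.811). Cd8a read 6.53, 6.73 and 6.58 against 6.71, 7.32 and 6.58, a difference of -0.26 (interval -0.60 to 0.08). The part of such cells in the other differences between the gates was not tested. Against GFP- Tfh, 1 of the 7 tested was lower and 0 higher, against 5.87% and 4.04% of all genes tested. This was Kit, at 7.65 and 7.56 in the gates and 8.33 in GFP- Tfh, and it lost its call in 2 alternatives.

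Arrays of the same replicate number resembled each other across the gates. The replicate term of the fit reached an unadjusted p under 0.05 in 1328 genes (11.8%), and the gate in 646. After adjustment the replicate term called 4 genes (0.0356%), Xist, which silences an X chromosome in female cells, and the Y-linked genes Eif2s3y, Uty and Kdm5d. Xist read 4.89, 5.24 and 10.65 in CXCR5+PD1- and 5.12, 4.87 and 10.84 in CXCR5-PD1-, and Eif2s3y read 8.59, 8.95 and 3.70 against 8.97, 8.87 and 4.00. Replicate 3 of each gate thus stood alone on both genes. The next genes by p were not called but moved together in the gates. Marcksl1, a membrane-cytoskeleton linker, read 8.06, 6.91 and 8.36 in CXCR5+PD1- and 8.04, 7.03 and 8.54 in CXCR5-PD1-. Vps37b, of the ESCRT-I complex, was lowest in replicate 1 at 9.44 and 9.66, against 10.52 to 10.79 in the other arrays. Zbtb10 and Ell2, a transcription elongation factor, were also lowest in replicate 1 of each gate.

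Whole arrays showed the same order. The SD over genes of the difference between 2 arrays was 0.265 to 0.275 for the same replicate number in the 2 PD1- gates, 0.298 to 0.345 for different numbers in the 2 gates and 0.282 to 0.342 for different numbers within a gate. From a PD1- array to a GFP- Tfh array it was 0.403 to 0.499. Each of the 6 PD1- arrays was nearest to the array of the same number in the other gate, and 0 to an array of its own gate.

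**Figure D5:**
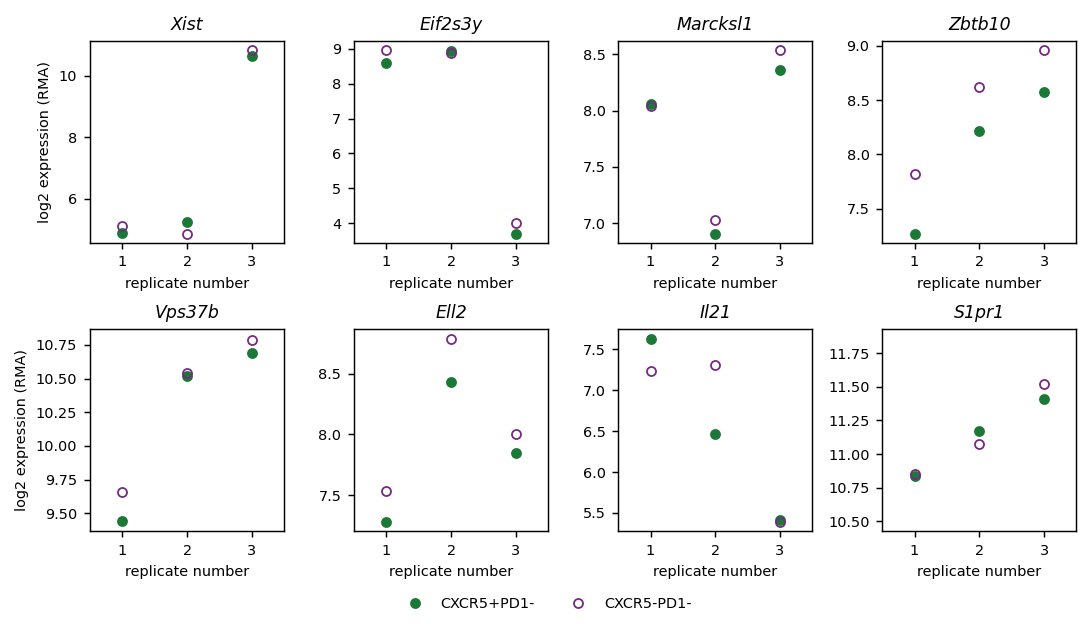
Log2 expression in CXCR5+PD1- (filled) and CXCR5-PD1- (open) by replicate number for the 6 genes Xist, Eif2s3y, Marcksl1, Zbtb10, Vps37b and Ell2 of the replicate term and for Il21 and S1pr1; panels have their own log2 axes, which do not start at 0, and the numbers have no order. For Xist and Eif2s3y replicate 3 stands apart in both gates, and for Il21 the gates read 6.46 and 7.31 in replicate 2.

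Set against GFP- Tfh one gate at a time, the gates gave like counts. CXCR5+PD1- was higher in 299 genes (2.66%) and lower in 496 (4.41%), and CXCR5-PD1- was higher in 365 (3.25%) and lower in 500 (4.45%), by limma at an adjusted p under 0.05. These 2 comparisons share the GFP- Tfh arrays. Side by side, CXCR5+PD1- and CXCR5-PD1- differed from GFP- Tfh by -2.60 and -2.50 for Cxcr5, -2.02 and -2.23 for Pdcd1, -1.52 and -1.39 for Bcl6, 2.64 and 2.66 for S1pr1, and 3.21 and 3.41 for Cd55. Among the 265 genes called by more than 1 unit in the joint comparison, 258 (97.4%) were bounded within 1 unit between the gates and 184 (69.4%) within 0.5, against 99.2% and 85.5% of all genes tested. CXCR5+PD1- lay nearer to GFP- Tfh than CXCR5-PD1- did in 144 of the 265 (54.3%, against 47.4% of all genes tested), by a median of 0.02, and the median was 0.06, -0.02 and 0.05 in pairs 1 to 3. In 14 of the 265 genes (5.28%) the gates did not overlap, against 8.74% of all genes tested.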

How the data were processed

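The authors deposited 1 table of log2 expression for 34760 probe sets, made with RMA in oligo per the submitters' processing notes. RMA aligns the arrays' distributions, which removes a shift of most genes at once and compresses low signals. The genome build and software versions are not given in the sources used here. Names came from the platform's probe annotation, brought up to date with the RefSeq gene table: 21640 had 1 gene symbol, 1321 had several and 11799 were unnamed here. For a gene with several probe sets (954 of 19937 genes) the one with the highest mean was used. Genes above the array median on at least 3 of the 12 arrays were tested (11240).

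Differences between the PD1- gates were fitted on their 6 arrays with limma 3.58.1 in R 4.3.3 (lmFit, eBayes), with the replicate number as a block, 2 residual and 5.41 total degrees of freedom, and Benjamini-Hochberg adjustment over all genes tested. Bounds come from 2 one-sided moderated tests in that fit. The comparison with GFP- Tfh used the 9 GFP- arrays without a block (10.1 total degrees of freedom). Same-numbered arrays of the gates deviated together (correlations of deviations from the group means 0.231, 0.210 and 0.353, other numbers -0.229 to 0.022), which is why they were paired. What the numbers stand for is not given in the labels. The code was tested on simulated data.

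Named genes are the sort and position markers, the 10 smallest p each way between the gates, the 8 smallest p of the replicate term, the 10 furthest each way from GFP- Tfh, and, of each list, the 4 lowest p-values and the members with the widest and narrowest interval. Il7r, Lef1, Klf2, Bcl6, Icos, Cd3d and Cd3e were named in addition, after their values were seen. So were list members without a call, members that passed the filter through Tfh arrays, and absent markers. Predicted genes and small RNAs were skipped. The members and lists were chosen with earlier results of these data known. Some list genes are not reported here.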

Additional observations from a re-analysis of the deposited data

How the results depend on the processing

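The pairing was checked by leaving it out. With no replicate block, limma on the 6 arrays called 0 genes between the PD1- gates (406 at an unadjusted p under 0.05), and 11103 were bounded within 1 unit. The comparison with GFP- Tfh gave 1272 genes with the replicate block, 527 higher and 745 lower. Without replicate 1, 2 or 3 in turn the call count stayed at 0, 11069 to 11090 genes were bounded, and the Cxcr5 difference ran from -0.25 to 0.0085. The bounded count was 19832 of 19937 without a filter and 6469 of 6533 with a filter at the 70th percentile, since these test more and fewer genes. The replicate term called 2 genes with the filter on the PD1- arrays, which takes out Xist, and 12 with an intensity trend in eBayes. The comparison with GFP- Tfh gave 639 genes with all 12 arrays and 700 to 1048 with 1 array left out. The cause of these moves was not tested.

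Differences near 0 between the gates changed sign in some settings, with no call in any of them. With cyclic loess, S1pr1 was 0.017, Cldn7 -0.021 and Krt8 -0.016. With a replicate number left out, S1pr1 ran from -0.066 to 0.037, Il21 from -0.41 to 0.21, Cd68 from -0.51 to 0.028, Ccr6 from -0.029 to 0.28, Ccr4 from -0.14 to 0.40, Cd22 from -0.060 to 0.023, Krt8 from -0.12 to 0.15, Ccl19 from -0.026 to 0.38, Il18rap from -0.011 to 0.37, Tff3 from -0.044 to 0.18 and Cldn7 from -0.011 to 0.056. Against GFP- Tfh, Cldn7 was -0.014 with cyclic loess. With 1 array left out, Cldn7 ran from -0.034 to 0.10, Tff3 from -0.079 to 0.081, Xbp1 from -0.073 to 0.034, Cd79b from -0.17 to 0.0082 and Mzb1 from -0.25 to 0.061, none of them called.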
